A study of Mus musculus with 56 samples.

Results

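The transcripts described here are 38 epithelial genes of the mouse that build or maintain junctions and apicobasal polarity: tight junction and desmosome components, polarity proteins, the epithelial transcription factors and splicing regulators that drive them, and membrane proteases with their inhibitors. They were taken as a list of gene names, chosen when earlier results of these data were known. All 38 were found among the 20314 genes of the expression table. RNA-sequencing had been performed on cell lines derived from mammary tumors of 12-week-old female MMTV-PyMT transgenic mice of the FVB/N background, in which the mouse mammary tumor virus promoter drives the polyoma middle T oncogene in the mammary epithelium. All lines therefore carry PyMT, and they differ in their alleles of β-catenin. The fl/fl line has a pair of floxed wild-type alleles and served as the wild type. The D164A/fl, ΔC/fl and dm/fl lines carry 1 mutant allele beside 1 floxed allele, and the D164A/-, ΔC/- and dm/- lines have the mutant allele and a deleted one. D164A is an amino acid exchange in β-catenin that interferes with the binding of its coactivators Bcl9 and Bcl9L, and the labels give ΔC and dm without a description. According to the study's methods, fibroblasts were removed from the cultures by differential trypsinization, and the floxed allele was deleted with an adenovirus that expresses Cre and GFP, after which GFP-positive cells were sorted. The cells of each of the 7 genotypes received TGFβ (2 ng/ml, 4 days) or Wnt3a (100 ng/ml, 3 days). Both experiments included their own untreated controls, which gave 28 conditions with 2 replicates each and 56 samples in all. The replicates are called biological duplicates, but no line or culture is given for them. The p-values therefore measure the spread between these samples only, and a genotype cannot be told apart from the cell line that carries it.

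Epithelial cells are held together by tight junctions, adherens junctions and desmosomes, and polarity complexes separate their apical from their basolateral membrane. Transforming growth factor β (TGFβ) can drive epithelial tumor cells into an epithelial-mesenchymal transition, in which Snail and Zeb family repressors are known to bind E-box elements in the promoters of junction and polarity genes. β-catenin works at both ends of this program, since it links E-cadherin to the cytoskeleton in adherens junctions and acts as a transcriptional coactivator in Wnt signaling. The comparisons below address whether TGFβ lowered the epithelial genes in each of the 7 genotypes.

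The reads assigned to genes numbered 22.4 M to 33.7 M per sample, and 3 reads, the smallest number counted as detected, corresponded to 0.0917 to 0.146 CPM, the deposited unit of reads scaled to library size. The keratins Krt8 and Krt18 were measured in every sample, at 167 CPM or more and 369 CPM or more. E-cadherin (Cdh1) ranged from 49.9 to 1050 CPM, whereas the luminal keratin Krt19 reached at most 55.0 CPM. Of the 7 luminal markers, 0 to 2 were under 1 CPM in both replicates of a condition. The 6 basal or myoepithelial markers, led by Krt14 in these conditions, differed between lines. In the TGFβ experiment they summed to 668 to 671 CPM in untreated and 156 to 205 CPM in treated fl/fl cells. Untreated ΔC/fl cells had 301 to 584 CPM and untreated ΔC/- cells 34.7 to 36.5 CPM. Wnt3a-treated D164A/fl cells had 2660 to 3580 CPM. Some defining markers of other cell types were near 0 in all 56 samples, with a maximum of 0.208 CPM for the leukocyte gene Ptprc, 0.0422 CPM for the macrophage gene Adgre1, 1.44 CPM for the endothelial gene Pecam1, 0.0851 CPM for the adipocyte gene Adipoq and 0.116 CPM for the fibroblast gene Thy1. Other genes of the same marker lists were high in individual lines. The 5 leukocyte markers, mostly through Csf1r, summed to 340 to 436 CPM in untreated and 426 to 449 CPM in TGFβ-treated dm/fl cells, and to 59.3 to 75.4 CPM without and 166 to 217 CPM with TGFβ in fl/fl cells. The 4 endothelial markers, mostly through Cdh5, summed to 0.186 to 0.287 CPM in untreated and 34.1 to 35.2 CPM in TGFβ-treated dm/fl cells, and to at most 3.71 CPM in the other conditions. The 3 adipocyte markers, mostly through Fabp4, summed to 10.1 to 23.6 CPM in untreated dm/fl cells of the TGFβ experiment and to at most 5.71 CPM in the other conditions. Fibroblast-associated Pdgfra, Pdgfrb and Col3a1 were also high in some lines. The 8 fibroblast markers summed to 321 to 779 CPM in untreated ΔC/fl and 332 to 554 CPM in untreated dm/fl cells, against 5.58 to 11.2 CPM in fl/fl cells of the TGFβ experiment. The part of these markers in the results was not tested. The level of β-catenin RNA (Ctnnb1) does not tell its alleles apart. In untreated cells of the TGFβ experiment it was 752 to 775 CPM in D164A/- against 612 to 679 CPM in D164A/fl and 2130 to 2160 CPM in ΔC/- against 1460 to 2030 CPM in ΔC/fl cells. It was lower with the deleted allele in the dm pair, with 770 to 897 CPM in dm/- against 1330 to 1410 CPM in dm/fl cells, and in the Wnt3a experiment with 658 to 736 CPM against 899 CPM in both dm/fl replicates.

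Members of the list were called lower with TGFβ in every genotype when all samples were fitted together, but how many differed widely. A gene was called when its adjusted p was at most 0.05 and its level changed at least 2-fold. The limma fit covered all 56 samples and the 13754 genes that reached 1 CPM in 2 or more samples, a filter which all 38 members passed. The change was largest in ΔC/fl cells, where 26 of the 38 members fell, while 4.49% of all genes tested were called lower. In fl/fl cells 11 members fell against 2.94% of all genes, in dm/fl cells 9 members against 6.88%, and in dm/- cells 8 members against 2.44%. The fewest were called in D164A/- cells with 5 members against 1.36%, in ΔC/- cells with 4 against 3.69%, and in D164A/fl cells with 2 against 0.88%. Few members were higher with TGFβ: 2 in dm/fl (3.45% of all genes), 1 each in D164A/fl (2.50%), D164A/- (2.70%), ΔC/fl (3.24%) and dm/- (3.68%), and 0 in fl/fl (3.31%) and ΔC/- (2.86%), where limma also found 0 members higher at an unadjusted p under 0.05 and edgeR called 0.

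The size of the shift followed the same pattern. The median log2 fold change of the 38 members was -1.91 in ΔC/fl, -0.91 in fl/fl, -0.61 in dm/-, -0.44 in dm/fl, -0.18 in D164A/-, -0.16 in ΔC/- and -0.15 in D164A/fl, while the median over all genes tested lay between -0.03 and 0.03 in each genotype. Both treated replicates lay below both untreated replicates for 33 members in ΔC/fl, where 25.2% of all genes did so, and for 31 members in fl/fl (25.7%). The corresponding numbers were 23 members in dm/- (28.4%), 21 in dm/fl (34.0%), 16 in D164A/- (28.2%), 16 in ΔC/- (29.9%) and 15 in D164A/fl (27.9%). Leaving out 1 library moved some of these counts by more than 1.5 times. The count in dm/- was 2 without TGFβ-treated replicate 2, 13 without TGFβ-treated replicate 1 and 5 without untreated replicate 2, that in fl/fl was 6 without untreated replicate 1 or without treated replicate 2, and those in D164A/fl and ΔC/- were 1 and in D164A/- 1 or 2 without any of their 4 libraries. The count in ΔC/fl lay between 19 and 26. A separate limma fit of only the 4 samples of each genotype, which leaves 2 residual degrees of freedom, called 8 members lower in fl/fl, 2 in D164A/fl, 2 in ΔC/-, 10 in dm/fl, and 0 in D164A/-, ΔC/fl and dm/-. In these last 3 genotypes such fits called 0.0%, 0.0% and 0.32% of all genes lower. They found 9, 29 and 10 members lower at an unadjusted p under 0.05. The share of all genes at that limit was not determined, so these counts have no background. edgeR on all samples called 3, 26 and 8 members lower, and 136, 606 and 328 of the 13754 genes tested.

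**Figure D1:**
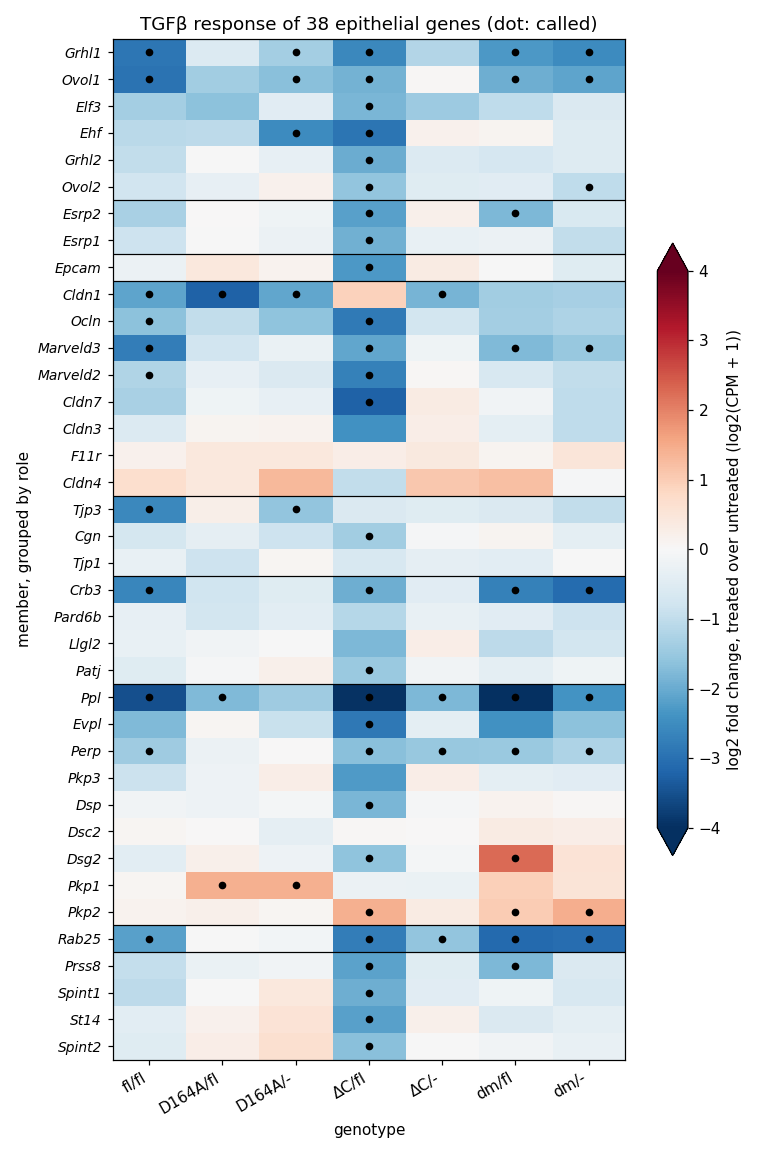
Log2 fold change with TGFβ of each of the 38 members (rows, grouped by role and ordered by mean response) in the 7 genotypes (columns), on the log2(CPM + 1) scale, with blue for lower and red for higher levels in treated cells. Black dots mark called changes, which fill most of the ΔC/fl column (26 lower, 1 higher) and few cells of the D164A/fl (2 lower, 1 higher) and ΔC/- (4 lower) columns.

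Averaged over the 7 genotypes as a single contrast, 12 members fell and 0 rose, while 2.20% of all genes were called lower and 2.68% higher. At an unadjusted p under 0.05 limma found 26 members lower and 3 higher, against 5192 of the 13754 genes in either direction. edgeR called 0 members higher and 14 lower, against 628 and 655 of all genes. The 12 members were the cytolinker genes Ppl and Evpl and the desmosome gene Perp, the transcription factors Grhl1, Ovol1, Elf3 and Ehf, the tight junction genes Cldn1, Ocln and Marveld3, the polarity gene Crb3 and the small GTPase gene Rab25. By role, 4 of 6 transcription factors, 3 of 8 tight junction membrane proteins, 1 of 4 polarity proteins, 3 of 9 desmosome genes and Rab25 were called, and none of the 2 splicing regulators, the 3 tight junction plaque proteins, the 4 proteases and inhibitors or the adhesion molecule Epcam. Of the 38 members, 28 were called lower in at least 1 genotype (14.3% of all genes), 15 in at least 2 (5.20%), 8 in at least 4 (0.807%) and 5 in at least 5 (0.291%). Those 5 were Ppl, which was called in 6 genotypes, and Grhl1, Ovol1, Perp and Rab25, which were called in 5. No member was called in all 7. A set of 10 members was not called lower in any genotype, namely Cldn3, Cldn4, F11r, Tjp1, Pard6b, Llgl2, Dsc2, Pkp1, Pkp2 and Pkp3. Some members could not be called lower in some lines. Dsc2 had 0 reads in both untreated libraries of D164A/fl, ΔC/fl and ΔC/- cells. Untreated Tjp3 in ΔC/fl, ΔC/- and dm/fl and untreated Cldn7 in dm/fl were too low for a 2-fold fall on the log2(CPM + 1) scale.

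Promoter letters are given for 4 members because they differ in the response to TGFβ and in the E-box letters CACCTG, which Snail and Zeb proteins are known to recognise. Rab25 and Crb3 fell in most genotypes, Cldn1 fell although its window lacks these letters, and Epcam carries them but fell in ΔC/fl cells only among the 7 contrasts. The sequences are the 250 bases before the annotated start in RefSeq (GRCm38.p6), written 5′ to 3′ on the strand of the gene, and capitals mark CACCTG or its reverse complement CAGGTG.
Rab25, chr3:88548280-88548529, minus strand: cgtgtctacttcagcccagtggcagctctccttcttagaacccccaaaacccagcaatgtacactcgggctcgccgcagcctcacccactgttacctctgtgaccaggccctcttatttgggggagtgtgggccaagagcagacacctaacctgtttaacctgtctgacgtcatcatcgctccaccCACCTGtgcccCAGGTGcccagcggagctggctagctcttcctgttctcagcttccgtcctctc
Crb3, chr17:57061951-57062200, plus strand: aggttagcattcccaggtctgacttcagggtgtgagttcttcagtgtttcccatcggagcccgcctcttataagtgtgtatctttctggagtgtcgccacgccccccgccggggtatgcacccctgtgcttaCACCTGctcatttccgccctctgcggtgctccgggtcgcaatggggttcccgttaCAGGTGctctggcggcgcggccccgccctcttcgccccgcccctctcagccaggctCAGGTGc
Cldn1, chr16:26371840-26372089, minus strand: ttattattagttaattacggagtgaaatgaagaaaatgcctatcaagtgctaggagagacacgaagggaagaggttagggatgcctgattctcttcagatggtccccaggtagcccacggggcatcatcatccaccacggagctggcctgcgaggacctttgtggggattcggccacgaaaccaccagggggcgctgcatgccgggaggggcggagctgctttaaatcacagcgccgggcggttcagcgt
Epcam, chr17:87635729-87635978, plus strand: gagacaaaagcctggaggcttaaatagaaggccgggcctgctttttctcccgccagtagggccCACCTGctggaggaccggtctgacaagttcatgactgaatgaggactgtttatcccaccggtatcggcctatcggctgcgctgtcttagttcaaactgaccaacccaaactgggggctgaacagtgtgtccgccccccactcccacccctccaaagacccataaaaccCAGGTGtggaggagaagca

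The Rab25 window holds 2 matches, the Crb3 window 3, the Epcam window 2 and the Cldn1 window 0. RefSeq windows of 300 bases, from 250 before to 50 after a start, were at hand for 21 of the 38 members. CACCTG was present on either strand for 15 of these 21 members (71.4%), against 22.6% of the 27025 genes with a window and 21.3% of the tested genes with one. Counted by window, because some genes have several starts, 19 of 29 member windows (65.5%) and 20.2% of all windows held it. The second E-box, CAGCTG, was present for 3 members (14.3%, against 18.3% of all genes), and AACCGG, the core of the Grhl binding element, for 6 (28.6%, against 7.74% of all genes and 12.5% of tested genes). These are matches of letters in a reference promoter and do not show binding in these cells.

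Ppl encodes periplakin, a cytolinker that connects desmosomes and the cornified envelope to intermediate filaments. Its level went from 77.3 and 120 CPM in untreated to 8.56 and 6.51 CPM in TGFβ-treated fl/fl cells, from 169 and 268 to 5.11 and 29.8 CPM in ΔC/fl, from 118 and 146 to 5.55 and 7.92 CPM in dm/fl and from 62.5 and 67.7 to 24.7 and 5.09 CPM in dm/- cells. It went from 39.7 and 65.4 to 10.9 and 18.8 CPM in D164A/fl, from 46.7 and 60.1 to 18.8 and 19.4 CPM in D164A/- and from 243 and 233 to 71.9 and 62.3 CPM in ΔC/- cells. Treated and untreated cells did not overlap in any genotype. The mean response over 7 genotypes was -2.71 ± 0.20 (log2 fold change ± SE, adjusted p = 8.77e-13), and within genotypes it ranged from -4.11 ± 0.52 in dm/fl (adjusted p = 3.46e-07) to -1.43 ± 0.52 in D164A/-, where the adjusted p was 0.133.

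Grhl1 and Ovol1 encode transcription factors that maintain epithelial differentiation. Grhl1 went from 16.4 and 11.1 to 1.33 and 0.625 CPM in fl/fl, from 10.9 and 7.24 to 0.292 and 1.11 CPM in ΔC/fl, from 13.8 and 14.8 to 1.75 and 2.53 CPM in dm/fl and from 11.7 and 12 to 1.97 and 0.694 CPM in dm/- cells. In the lines with D164A it started higher, and it went from 46.9 and 44.4 to 30.1 and 31.1 CPM in D164A/fl and from 66.5 and 51.6 to 31.8 and 15.5 CPM in D164A/- cells, while ΔC/- cells had 5.90 and 5.54 CPM without and 2.62 and 1.42 CPM with TGFβ. The mean response was -1.91 ± 0.15 (adjusted p = 6.48e-12), with the strongest fall in fl/fl (-2.90 ± 0.40, adjusted p = 2.78e-06). D164A/fl (-0.56 ± 0.40, adjusted p = 0.633) and ΔC/- cells (-1.18 ± 0.40, adjusted p = 0.0595) did not pass the test.

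Ovol1 went from 20.1 and 17.3 to 1.64 and 1.47 CPM in fl/fl, from 20.2 and 19.7 to 6.38 and 7.49 CPM in D164A/fl, from 6.10 and 8.61 to 1.28 and 1.98 CPM in D164A/- and from 3.40 and 6.57 to 0.389 and 0.723 CPM in ΔC/fl cells. It went from 7.89 and 9.40 to 1.12 and 1.97 CPM in dm/fl and from 10.4 and 11 to 2.42 and 1.12 CPM in dm/- cells. ΔC/- cells stood apart, with 7.34 and 7.74 CPM without and 7.64 and 7.98 CPM with TGFβ, so that their groups overlapped. The mean response was -1.70 ± 0.17 (adjusted p = 9.03e-10), that of ΔC/- was 0.05 ± 0.44 (adjusted p = 1.0) and that of fl/fl was -2.94 ± 0.44 (adjusted p = 1.18e-05).

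Rab25 encodes a GTPase of apical recycling endosomes and Crb3 the apical polarity protein Crumbs3. Rab25 went from 146 and 104 to 30.4 and 23.1 CPM in fl/fl, from 63.0 and 91.7 to 6.47 and 15.9 CPM in ΔC/fl, from 135 and 130 to 35.6 and 53.4 CPM in ΔC/-, from 60.5 and 91.3 to 6.89 and 8.51 CPM in dm/fl and from 53.0 and 43.9 to 9.43 and 2.35 CPM in dm/- cells. In the D164A lines the groups overlapped, with 107 and 117 CPM without and 99.9 and 120 CPM with TGFβ in D164A/fl, and 65.8 and 73.3 against 72.4 and 56.8 CPM in D164A/- cells. The response was -3.12 ± 0.51 in dm/fl (adjusted p = 2.25e-05) and -0.03 ± 0.51 in D164A/fl (adjusted p = 1.0), with a mean over 7 genotypes of -1.84 ± 0.19 (adjusted p = 3.13e-09).

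Crb3 went from 29.1 and 17.2 to 3.42 and 2.28 CPM in fl/fl, from 8.44 and 14.6 to 1.26 and 3.40 CPM in ΔC/fl, from 6.96 and 9.94 to 0.280 and 0.592 CPM in dm/fl and from 37.8 and 24.9 to 5.98 and 1.02 CPM in dm/- cells. It was called in these 4 genotypes, with a response of -3.08 ± 0.59 in dm/- (adjusted p = 0.000513) and -2.71 ± 0.59 in dm/fl (adjusted p = 0.00116). Without the pseudocount the order of these lines turned, since the mean CPM was 19.4 times higher in untreated than in treated dm/fl and 8.95 times in dm/- cells. In the other lines it went from 15.5 and 18.7 to 8.28 and 10.6 CPM (D164A/fl), from 5.21 and 5.10 to 4.06 and 2.82 CPM (D164A/-) and from 23.9 and 30.2 to 13.7 and 27.0 CPM (ΔC/-), with adjusted p of 0.661, 1.0 and 0.837. The mean response was -1.73 ± 0.22 (adjusted p = 2.19e-07).

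Cldn1 and Ocln encode the tight junction proteins claudin-1 and occludin. Cldn1 went from 163.82 and 133.43 to 52.1 and 21.3 CPM in fl/fl, from 22.8 and 57.8 to 1.63 and 5.13 CPM in D164A/fl, from 4.4 and 6.28 to 0.441 and 0.513 CPM in D164A/-, from 51.7 and 78.9 to 21.8 and 13 CPM in ΔC/-, from 31.6 and 26.9 to 14 and 7.72 CPM in dm/fl and from 28.3 and 50.4 to 15.9 and 12.9 CPM in dm/- cells. In ΔC/fl cells, where most other members fell, Cldn1 had 29.7 and 27.7 CPM without and 56.7 and 54.7 CPM with TGFβ, a difference of 0.93 ± 0.59 that did not pass the test (adjusted p = 0.463). The fall was called in fl/fl, D164A/fl, D164A/- and ΔC/- and was largest in D164A/fl (-3.22 ± 0.59, adjusted p = 0.000464), and the mean response was -1.58 ± 0.22 (adjusted p = 8.97e-07).

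Ocln went from 58.1 and 47.5 to 23.2 and 11 CPM in fl/fl, from 51.7 and 48.2 to 5.01 and 7.53 CPM in ΔC/fl, from 70.9 and 70.6 to 35.1 and 35.2 CPM in D164A/fl, from 39.1 and 39.7 to 12.7 and 11.9 CPM in D164A/-, from 46.9 and 54.9 to 34.5 and 26.6 CPM in ΔC/-, from 15.2 and 19.0 to 4.89 and 7.36 CPM in dm/fl and from 87.1 and 90.6 to 66.3 and 20.8 CPM in dm/- cells. The groups did not overlap in any genotype, but only fl/fl (-1.65 ± 0.49, adjusted p = 0.0299) and ΔC/fl (-2.83 ± 0.49, adjusted p = 9.17e-05) passed the test. The mean response was -1.48 ± 0.18 (adjusted p = 1.1e-07). Evpl, which encodes the cytolinker envoplakin, went from 82.9 and 201 to 13.1 and 21.4 CPM in ΔC/fl (-2.87 ± 0.83, adjusted p = 0.0211), the only genotype in which it was called. It went from 76.7 and 88.4 to 25.5 and 21.1 CPM in fl/fl, from 40.5 and 69.6 to 6.51 and 12.5 CPM in dm/fl, from 55.7 and 31.4 to 23.4 and 6.74 CPM in dm/- and from 18.3 and 32.7 to 11.6 and 13.7 CPM in D164A/- cells, and overlapped between the groups in D164A/fl (22.8 and 36.9 against 26.7 and 35.7 CPM) and ΔC/- cells (209.63 and 164.03 against 108 and 185 CPM). Its mean response was -1.42 ± 0.32 (adjusted p = 0.000683). Each of these 8 mean responses was called under every alternative that was run.

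**Figure D2:**
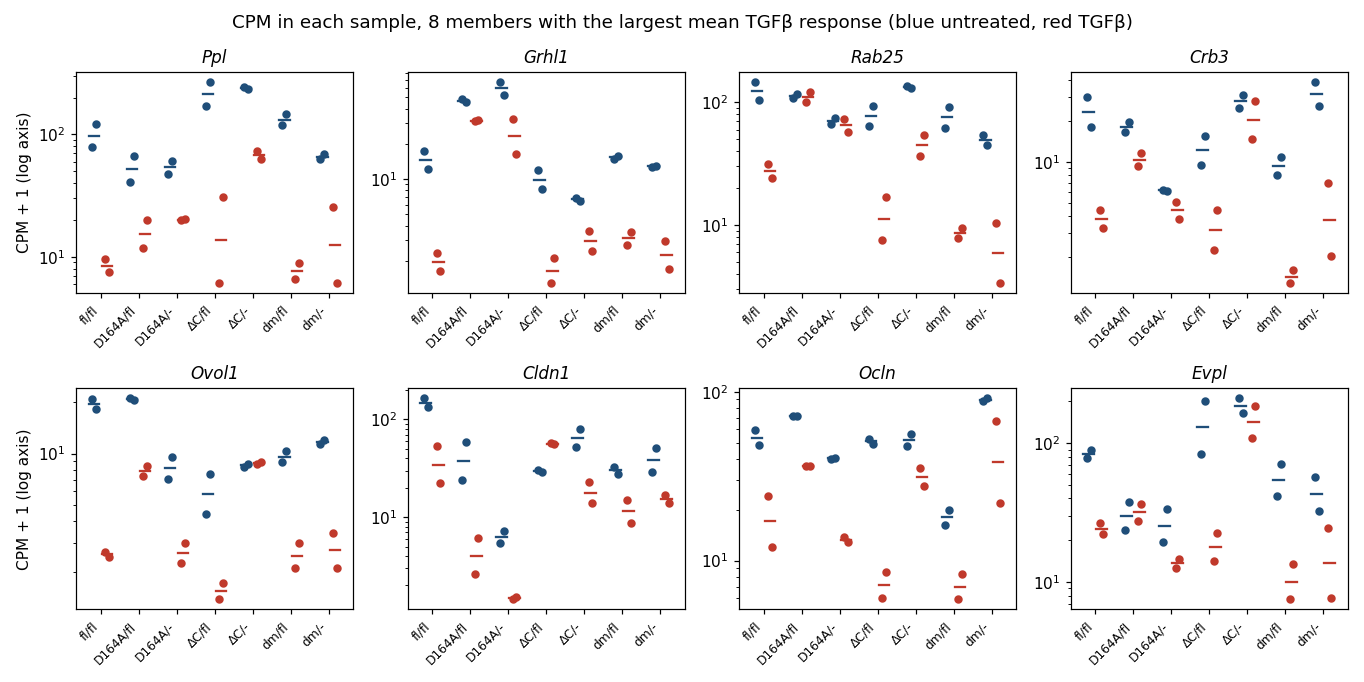
CPM + 1 on a log axis in each sample of the TGFβ experiment for the 8 members with the largest mean response, by genotype; blue points are untreated and red points treated replicates, and short lines mark the mean of 2 replicates on the log scale. Red points lie below blue points for Ppl and Ocln in all 7 genotypes, whereas Ovol1 in ΔC/- cells and Rab25 in the D164A lines overlap, and Cldn1 in ΔC/fl cells has 56.7 and 54.7 CPM with TGFβ above 29.7 and 27.7 CPM without.

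Several members fell with TGFβ in ΔC/fl cells and were called lower in at most 1 other genotype. Among the 9 desmosome genes 5 were called lower and 1 higher in ΔC/fl cells (4.49% and 3.24% of all genes). Pkp1 and Pkp3 were not called, and Dsc2 could not be called lower because both untreated libraries had 0 reads. Epcam, the epithelial cell adhesion molecule, went from 369 and 388 to 76.8 and 75.3 CPM in ΔC/fl cells (-2.30 ± 0.29, adjusted p = 9.24e-07), while its response in the other genotypes lay between -0.50 and 0.41 and was not called. Dsp, which encodes desmoplakin, the link between desmosomes and intermediate filaments, went from 491 and 619 to 153 and 155 CPM in ΔC/fl (-1.83 ± 0.21, adjusted p = 1.79e-07), and between -0.19 and 0.14 in the other genotypes. Esrp1, a splicing regulator of epithelial isoforms, went from 185 and 217 to 47.9 and 56.9 CPM in ΔC/fl (-1.92 ± 0.31, adjusted p = 2.98e-05), and its relative Esrp2 from 23.1 and 38.3 to 5.54 and 6.13 CPM (-2.17 ± 0.46, adjusted p = 0.00132). Esrp2 was also called in dm/fl (-1.79 ± 0.46, adjusted p = 0.00634). All 4 genes for membrane serine proteases or their inhibitors, St14, Prss8, Spint1 and Spint2, fell in ΔC/fl (4.49% of all genes), by 1.66 to 2.17 on the log2 scale, and of these only Prss8 was also called elsewhere, in dm/fl (-1.80 ± 0.58, adjusted p = 0.0332). All 6 transcription factors fell in ΔC/fl cells as well, against the same 4.49% of all genes.

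The comparison of ΔC/- with ΔC/fl cells gave the largest number of differences between responses. The response of ΔC/- minus that of ΔC/fl was called for 10 of 38 members, all in the positive direction, against 1.5% of all genes in that direction, and the median difference was 1.57 for the members and 0.00 for all genes. The 10 members were Cldn7, Ehf, Marveld2, Epcam, Esrp2, Marveld3, Dsp, Esrp1, Grhl2 and Patj, which spans tight junction, adhesion, desmosome, polarity, splicing and transcription factor genes. Claudin-7 (Cldn7) went from 58.7 and 81.4 to 8.32 and 4.94 CPM in ΔC/fl cells, whereas ΔC/- cells had 16.9 and 18.7 CPM without and 17.1 and 29.7 CPM with TGFβ. The difference of the responses was 3.57 ± 0.73 (adjusted p = 0.00274). Cldn7 had 176 and 127 against 69.5 and 51.4 CPM in fl/fl, 87.4 and 114 against 77.7 and 103 CPM in D164A/fl, 54.4 and 70.2 against 48.1 and 50.1 CPM in D164A/- and 184 and 117 against 110 and 47.0 CPM in dm/- cells, and only 0.621 and 1.12 against 0.530 and 0.855 CPM in dm/fl cells. At that level a called fall was not possible in dm/fl cells. Cldn7 was called in ΔC/fl alone.

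Ehf, an epithelium-specific Ets factor, went from 88.1 and 39.6 to 5.79 and 8.47 CPM in ΔC/fl and had 65.1 and 60.6 CPM without and 114 and 43.0 CPM with TGFβ in ΔC/- cells, a difference of 3.06 ± 0.74 (adjusted p = 0.0122). It also fell in D164A/- cells, from 360 and 264 to 52.4 and 54.0 CPM (-2.51 ± 0.52, adjusted p = 0.00148). It had 98.8 and 73.4 against 54.0 and 28.8 CPM in fl/fl and 157 and 143 against 80.0 and 65.2 CPM in D164A/fl, without passing the test, and 36.3 and 41.4 against 41.3 and 42.4 CPM in dm/fl and 15.1 and 10.1 against 8.26 and 8.49 CPM in dm/- cells. The best supported of the 10 differences were those of Epcam (2.62 ± 0.42, adjusted p = 0.00012), Marveld2, which encodes tricellulin (2.77 ± 0.46, adjusted p = 0.000242), and Dsp (1.79 ± 0.30, adjusted p = 0.000259). Without TGFβ-treated ΔC/fl replicate 1 the count was 5, and without untreated ΔC/fl replicate 2, untreated ΔC/- replicate 1 or treated ΔC/- replicate 1 it was 6. edgeR called 8 of the members.

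For the other pairs of a floxed and a deleted line, 0 members were called. The background was 1.35% of all genes for D164A/- minus D164A/fl and 7.31% for dm/- minus dm/fl. At an unadjusted p under 0.05, limma found 1 member for the D164A pair, against 964 of the 13754 genes tested. It found 2 for the dm pair (Dsg2 and Ppl), against 2530 genes. For the D164A pair the member was Tjp3, with a TGFβ response of -1.57 in D164A/- and 0.24 in D164A/fl cells. edgeR called 0 members in both. The median differences of the members were 0.02 and -0.07.

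Compared with fl/fl, 10 member-by-genotype differences of the TGFβ response were called. These 6 comparisons share the fl/fl samples. In D164A/fl the responses of Tjp3 (2.80 ± 0.66), Grhl1 (2.34 ± 0.56) and Marveld3 (1.98 ± 0.50) were more positive than in fl/fl (2.48% of all genes), in D164A/- that of Marveld3 (2.50 ± 0.50; 2.36%), and in ΔC/- those of Ovol1 (2.99 ± 0.63) and Marveld3 (2.59 ± 0.50; 0.800%). Marveld3 encodes a tight junction protein of the occludin family, and it went from 24.0 and 16.4 to 2.53 and 1.69 CPM in fl/fl, but had 23.4 and 32.3 against 21.9 and 23.8 CPM in D164A/- and 15 and 21.1 against 12.7 and 19.4 CPM in ΔC/- cells. In ΔC/fl the responses of Epcam (-2.06 ± 0.42) and Dsp (-1.69 ± 0.30) were more negative (1.63% of all genes) and that of Cldn1 was more positive (3.04 ± 0.83, adjusted p = 0.0334; 1.06%). The Cldn1 difference was not called with edgeR, with a pseudocount of 0.1, in a fit of only the samples compared, or without any one of 7 of its 8 libraries. In dm/fl the response of Dsg2 was more positive (2.71 ± 0.61, adjusted p = 0.00502, 0.872% of all genes). In dm/- 0 members were called (2.78% of all genes in either direction). At an unadjusted p under 0.05 limma found 3 members in dm/-, against 1368 of the 13754 genes tested, and edgeR called 0. The count of 10 fell to 6 without TGFβ-treated fl/fl replicate 2.

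A few desmosome genes rose. The higher calls made up 5.26% of the members in dm/fl, against 3.45% of all genes. They made up 2.63% each in D164A/fl (2.50% of all genes), D164A/- (2.70%), ΔC/fl (3.24%) and dm/- (3.68%). Such small counts were not read as particular to the members. Dsg2, which encodes the desmosomal cadherin desmoglein-2, went from 33.7 and 40.7 to 163 and 205 CPM in dm/fl cells (2.27 ± 0.43, adjusted p = 0.000229) and in the opposite direction in ΔC/fl, from 94.0 and 71.1 to 34.1 and 20.0 CPM (-1.61 ± 0.43, adjusted p = 0.012). It had 352 and 259 against 289 and 172 CPM in fl/fl, 132 and 152 against 171 and 154 CPM in D164A/fl, 239 and 198 against 191 and 189 CPM in D164A/-, 87.2 and 82.2 against 97.6 and 64.7 CPM in ΔC/- and 121 and 123 against 210 and 154 CPM in dm/- cells, none of which passed the test. Untreated dm/fl cells had the lowest level of the 7 genotypes, and the treated cells reached the range of the other lines.

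Pkp2 and Pkp1 encode plakophilins, plaque proteins of desmosomes. Pkp2 went from 52.8 and 65.5 to 174 and 147 CPM in ΔC/fl (1.43 ± 0.31, adjusted p = 0.00179), from 37.1 and 42.6 to 71.0 and 93.4 CPM in dm/fl (1.02 ± 0.31, adjusted p = 0.0252) and from 36.3 and 51.6 to 98.5 and 145 CPM in dm/- cells (1.44 ± 0.31, adjusted p = 0.00206). In the remaining lines it had 50.6 and 69.5 against 67.5 and 63.3 CPM (fl/fl), 55.9 and 52.3 against 59.9 and 64.2 CPM (D164A/fl), 45.3 and 49.6 against 38.7 and 64.4 CPM (D164A/-) and 96.1 and 122 against 124 and 147 CPM (ΔC/-). Pkp1 went from 137 and 249 to 431 and 573 CPM in D164A/fl (1.42 ± 0.38, adjusted p = 0.0215) and from 160 and 218 to 487 and 513 CPM in D164A/- cells (1.41 ± 0.38, adjusted p = 0.0185). It had 297 and 299 against 344 and 291 CPM in fl/fl, 72.4 and 82.1 against 76.2 and 56.2 CPM in ΔC/fl, 43.6 and 52.0 against 40.1 and 39.0 CPM in ΔC/-, 216 and 241 against 376 and 511 CPM in dm/fl and 158 and 176 against 306 and 188 CPM in dm/- cells. Each Pkp1 call was lost without any of 3 of the 4 libraries of its genotype, the Pkp2 call in dm/fl without untreated replicate 1 or 2 or treated replicate 2, and that in dm/- without untreated replicate 1 or treated replicate 2.

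Members that were not called lower in any genotype included some with large spread and some with small changes. F11r, which encodes the junctional adhesion molecule JAM-A, had positive log2 fold changes in all 7 genotypes, from 0.12 to 0.49, none of which was called. Tjp1, which encodes the plaque protein ZO-1, lay between -0.82 and 0.08. Cldn4 lay between -0.99 and 1.30. Cldn3, Llgl2 and Pkp3 had their lowest values in ΔC/fl, with -2.41, -1.79 and -2.26, but their standard errors in this fit were 0.98, 0.85 and 0.76.

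**Figure D3:**
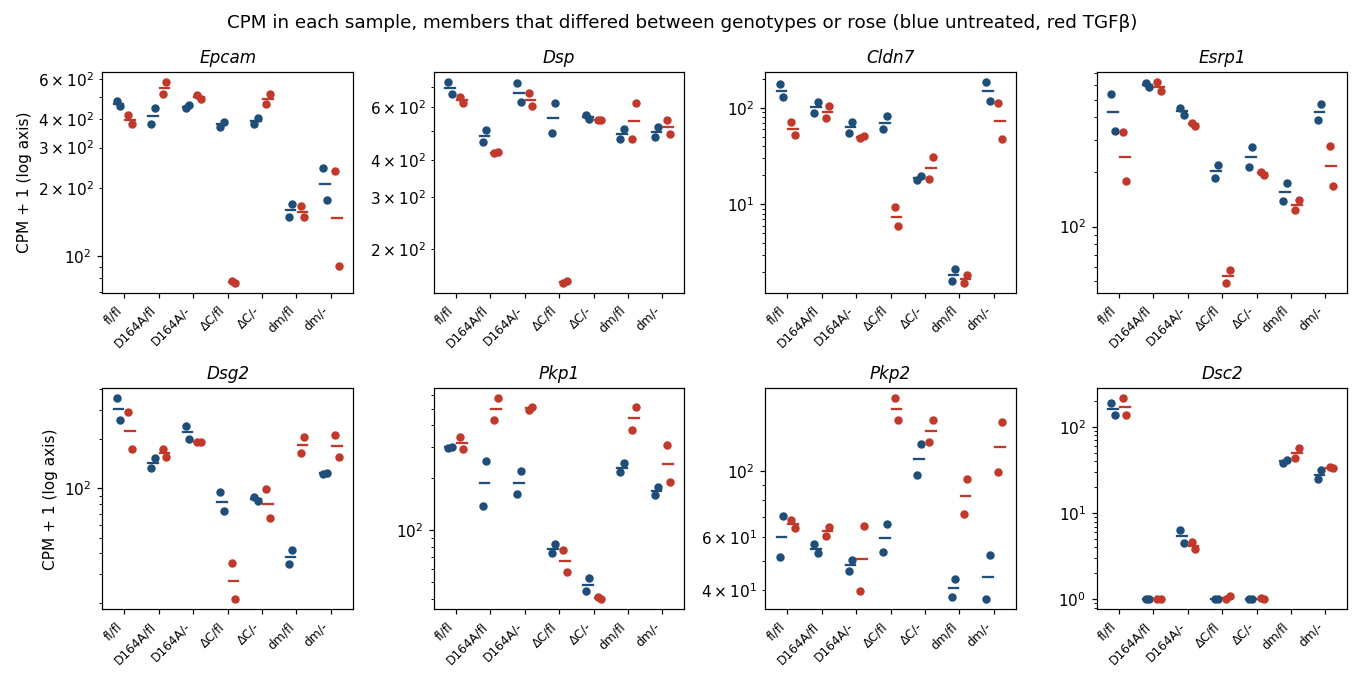
CPM + 1 on a log axis in each sample of the TGFβ experiment for 8 members with responses that differed between genotypes, that rose, or with very different untreated levels; blue points are untreated and red points treated replicates, and short lines mark the mean of 2 replicates on the log scale. Epcam, Dsp, Cldn7 and Esrp1 drop most in ΔC/fl cells, Dsg2 rises in dm/fl cells, and Dsc2 lies at or near 0 CPM in D164A/fl, ΔC/fl and ΔC/- cells.

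Few of these genes were called with Wnt3a. Of the 38 members, 2 were called in D164A/fl cells, both higher (2.85% of all genes), and 0 in the other 6 genotypes. There the share of all genes called in either direction was 0.378% in fl/fl, 0.654% in D164A/-, 0.225% in ΔC/fl, 0.0509% in ΔC/-, 0.574% in dm/fl and 0.0% in dm/- cells. Ppl went from 86.3 and 88.4 to 429 and 431 CPM (2.29 ± 0.52, adjusted p = 0.00367) and Grhl1 from 46.3 and 48.3 to 133 and 120 CPM in D164A/fl (1.39 ± 0.40, adjusted p = 0.0314), the 2 members with the largest mean fall with TGFβ. In limma at an unadjusted p under 0.05, 5 members changed in fl/fl, where 1871 of the 13754 genes tested did. In ΔC/fl 2 members changed (359 genes) and in dm/fl 2 (2300 genes). In D164A/- 1 changed (498 genes), and in ΔC/- (367 genes) and dm/- (29 genes) 0 did. In D164A/fl 10 members changed, all higher, against 1743 genes in either direction. edgeR called 1 member in D164A/fl, where it called 282 genes higher, and 0 members elsewhere. The median log2 fold change of the members lay between -0.33 in ΔC/fl and 0.34 in D164A/fl. The untreated dm/fl replicates of the Wnt3a experiment differed widely, with 454 and 87.7 CPM of Cldn4 and 8.30 and 32.4 CPM of Dsc2, and without replicate 2 the summed count of member calls was 15 in place of 2. It was 5 without Wnt3a-treated fl/fl replicate 2 and 1 without untreated D164A/fl replicate 2 or either treated D164A/fl replicate. Across 9381 genes the Wnt3a response followed transcript GC content in fl/fl (Spearman rho = 0.81), ΔC/- (0.84) and dm/fl (-0.82) but not in D164A/fl cells (0.00), and with this trend removed 6 member calls were made.

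**Figure D4:**
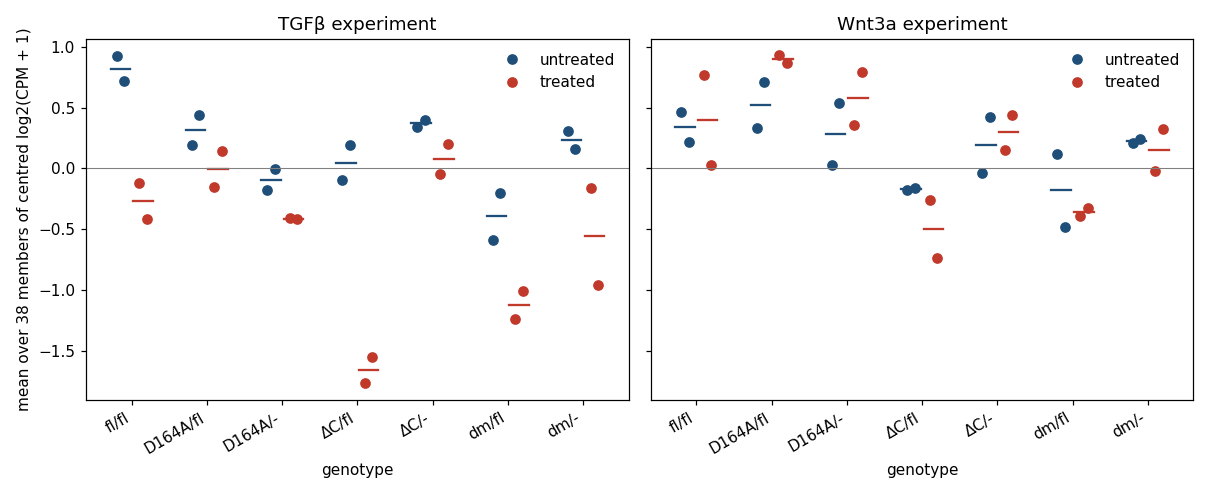
Mean over the 38 members of log2(CPM + 1), centred for each member on its mean over all 56 samples, in each sample of the TGFβ (left) and Wnt3a (right) experiments; blue points are untreated and red points treated replicates, and lines mark the mean of 2 replicates. Treated ΔC/fl cells are lowest at -1.77 and -1.55, and the treated dm/- replicates lie apart at -0.16 and -0.96.

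The mean centred level of the 38 members summarises these patterns. Without TGFβ it was highest in fl/fl cells (0.92 and 0.72) and lowest in dm/fl cells (-0.59 and -0.20), with ΔC/- at 0.34 and 0.40, D164A/fl at 0.19 and 0.44, dm/- at 0.31 and 0.16, ΔC/fl at -0.10 and 0.19 and D164A/- at -0.18 and -0.01. With TGFβ it was -0.12 and -0.42 in fl/fl, -1.77 and -1.55 in ΔC/fl, -1.24 and -1.01 in dm/fl and -0.05 and 0.20 in ΔC/- cells. Treated D164A/fl cells were at -0.15 and 0.14 and treated D164A/- cells at -0.41 and -0.42. Both treated replicates lay below both untreated replicates in each genotype, most narrowly in D164A/fl (0.14 against 0.19). The 2 treated dm/- replicates were at -0.16 and -0.96, which shows as a difference in many members: Epcam was at 236 and 90.1 CPM, Cdh1 at 502 and 140 CPM and Rab25 at 9.43 and 2.35 CPM. In the same libraries the mesenchymal repressor gene Zeb1 was at 16.8 and 58.1 CPM. Both ΔC/fl replicates lay below both ΔC/- replicates without as well as with TGFβ. In the Wnt3a experiment the untreated fl/fl cells were at 0.46 and 0.22, below those of the TGFβ experiment, so levels are compared only within an experiment.

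Members differed between the untreated lines, and so did many other genes. In the TGFβ experiment, dm/fl cells had 15 members called lower than fl/fl (6.32% of all genes), ΔC/fl 9 (6.64%), ΔC/- 8 (10.2%), D164A/- 7 (11.1%), dm/- 6 (7.16%) and D164A/fl 5 (8.22%). Called higher were 3 members in D164A/- (8.32% of all genes) and 1 in D164A/fl (6.51%), which are no larger shares of the 38 members than of all genes. These comparisons share the fl/fl samples. Without untreated fl/fl replicate 1 the total of 54 calls fell to 35. Called lower in both experiments were 10 members in dm/fl (3.45% of all genes), 6 in dm/- (4.86%), 5 in ΔC/fl (3.77%), 5 in ΔC/- (5.74%), 4 in D164A/- (6.14%) and 2 in D164A/fl (4.02%). Dsc2 was among them in all 6 mutant lines, and Cldn1 in all but ΔC/-. The dm/- line had 8 members higher in both experiments than dm/fl (3.83% of all genes), namely Esrp1, Cldn4, Cldn7, Ocln, Marveld2, F11r, Pard6b and Dsg2.

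The members with the widest range between lines were chosen after their values were seen. Dsc2, which encodes the desmosomal cadherin desmocollin-2, had 189 and 135 CPM in untreated fl/fl cells of the TGFβ experiment, 37.6 and 40.1 CPM in dm/fl, 23.7 and 30.8 CPM in dm/- and 5.44 and 3.50 CPM in D164A/- cells, and 0 reads in both libraries of D164A/fl, ΔC/fl and ΔC/-. Set against 3 reads per library, Dsc2 was at least 1530-fold lower in D164A/fl, 1350-fold lower in ΔC/fl and 1400-fold lower in ΔC/- cells than the fl/fl mean of 162 CPM. In the Wnt3a experiment Dsc2 was again at 0 in the untreated ΔC/fl and ΔC/- cells and at 0.0675 and 0 CPM in D164A/fl cells. TGFβ did not bring it above 0.0851 CPM in these 3 lines.

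Cldn7 had 0.621 and 1.12 CPM in untreated dm/fl cells, against 184 and 117 CPM in dm/- cells (difference of dm/- from dm/fl 6.32 ± 0.51, adjusted p = 1.89e-11), and the Wnt3a experiment gave 1.5 and 0.430 against 132 and 210 CPM (6.47 ± 0.51, adjusted p = 1.49e-11). Cldn4, which encodes claudin-4, had 1.47 and 2.89 CPM in untreated D164A/-, 55.6 and 134 CPM in D164A/fl, 822 and 316 CPM in fl/fl and 1430 and 916 CPM in dm/- cells. Tjp3, the gene for the tight junction plaque protein ZO-3, was at 24.5 and 25.7 CPM in D164A/- and at 0.776 and 0.441 CPM in ΔC/- cells, and in the Wnt3a experiment at 17.4 and 23.8 CPM and 0.248 and 0.416 CPM. Dsp, in contrast, ranged from a mean of 480 CPM in D164A/fl to 697 CPM in fl/fl cells. Per kb of transcript, the members with the highest median level over the 14 untreated samples of the TGFβ experiment were Epcam with 290.0 CPM per kb (range 111 to 363), Perp with 266 (111 to 435) and Spint2 with 194 (63.7 to 325). Their ranges overlapped. Cldn4 had a median of 186 CPM per kb and ranged from 0.808 to 788.

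Other genes of junctions and polarity came from a list of 42 of which 38 could be tested. TGFβ lowered 3 of them in ΔC/fl (4.49% of all genes), 2 in fl/fl (2.94%), 2 in dm/fl (6.88%), 1 in D164A/- (1.36%) and 1 in ΔC/- cells (3.69%). It raised 3 each in fl/fl (3.31%), ΔC/- (2.86%) and dm/fl (3.45%) and 1 each in D164A/fl (2.50%), D164A/- (2.70%) and dm/- cells (3.68%). Each count was 3 or fewer, and none was read as particular to this list. Their median log2 fold change was between -0.20 and 0.03. Cdh1, the gene for E-cadherin, fell in fl/fl from 966 and 782 to 457 and 302 CPM (-1.22 ± 0.34, adjusted p = 0.0178) and in ΔC/fl from 324 and 335 to 73.4 and 49.9 CPM (-2.43 ± 0.34, adjusted p = 3.77e-06) and was not called elsewhere. The desmosomal cadherin gene Dsg3 fell in the same 2 lines, by 3.85 and 4.39 on the log2 scale. In the mean over genotypes, Amot (1.44 ± 0.12), Jam2 (1.59 ± 0.17) and Pard6g (1.14 ± 0.15) rose, which encode a junction-associated scaffold, a junctional adhesion molecule and a partner of the Par polarity complex.

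Of 12 genes of TGFβ response and mesenchymal state, 7 were called higher in fl/fl (3.31% of all genes), 6 in ΔC/- (2.86%), 6 in dm/- (3.68%), 5 in D164A/- (2.70%), 4 in D164A/fl (2.50%), 4 in ΔC/fl (3.24%) and 3 in dm/fl cells (3.45%). Among these 12 genes only Zeb1 is given with values, here for ΔC/fl, ΔC/-, fl/fl and D164A/fl cells and above for treated dm/- cells. These values do not describe the other lines. Zeb1 was at 76.4 and 51.8 CPM in untreated ΔC/fl cells and at 206 and 151 CPM in treated ones. In ΔC/- cells it went from 3.49 and 3.40 to 21.6 and 18.3 CPM, in fl/fl from 4.63 and 3.67 to 46.4 and 63.4 CPM, and in D164A/fl it had 1.73 and 1.42 CPM without and 2.71 and 2.33 CPM with TGFβ. The 8 fibroblast markers summed to 421 to 507 CPM in treated ΔC/fl and 25.8 to 26.3 CPM in treated ΔC/- cells. The part of Zeb1 or of these markers in the results was not tested. In bulk RNA, fewer cells that express a gene and less RNA per cell cannot be told apart.

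Across the 28 condition means, 27 of the 38 members had a Pearson r above 0.5 with the mean centred level of all members, with a median of 0.59 and a range from -0.34 to 0.91. Among the genes outside the list most like it were Kazn (r = 0.87), Proser2 (0.85), Cnksr1 (0.84), Slpi (0.82), Cdh1 (0.81), Tmem170, Tnk1 and Gpr160 (each 0.80) and Shtn1 (0.79). The 28 points share cell lines and untreated cells, and the members are part of their own mean, so these values are a description only.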

How the data were processed

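The authors sequenced stranded poly(A) libraries from one end. They aligned the reads with STAR to the mm10 genome, kept unique hits and counted reads on RefSeq genes with QuasR. The deposited values are a signal of read counts divided by an effective library size, called CPM here; 100% of the values were whole multiples of 1 read (tolerance 0.001 reads), so the reads could be recovered. Samples were grouped by their labels. Log2(CPM + 1) values were tested with limma 3.58.1 in R 4.3.3 (28 group coefficients, eBayes with a trend), with Benjamini-Hochberg adjustment per contrast over all 13754 genes tested, and tables were made in Python 3.11.15 with pandas 2.3.3. All fold changes are on the log2(CPM + 1) scale, which understates changes of low genes. Entrez identifiers were matched to symbols with RefSeq (GRCm38.p6) for 20261 of 20314 genes. No sample was dropped. Counting error alone is covered by the limit of 3 reads.

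Named with values in every sample were the 8 members with the largest mean TGFβ response among those called, members called in the opposite direction, and up to 4 with the largest called difference between genotypes. Members and lists were chosen with earlier results of these data known. Alternatives were a pseudocount of 0.1, no filter, edgeR 4.0.16 on the whole reads, median-of-ratios scaling, only the samples compared, a replicate block, removal of the GC trend, both together, leaving out each replicate, and, added after the data were examined, a crossed pairing in ΔC/-. Scripts were tested on simulated data. The study's edgeR test was an alternative because normalized values were deposited. Results for some genes are not reported here.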

Additional observations from a re-analysis of the deposited data

Results flagged for a closer look

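These results stood out because the TGFβ response of a member differed between 2 cell lines by a test of the difference itself (limma, log2 scale, adjusted over all genes tested). Against fl/fl, they were Grhl1 (2.34), Tjp3 (2.80) and Marveld3 (1.98) in D164A/fl, Marveld3 (2.50) in D164A/-, Cldn1 (3.04), Dsp (-1.69) and Epcam (-2.06) in ΔC/fl, Ovol1 (2.99) and Marveld3 (2.59) in ΔC/-, and Dsg2 (2.71) in dm/fl. These comparisons share the fl/fl samples. The call in D164A/- was 2.63% of the members against 2.36% of all genes, and the shares for the other lines are given above. The Cldn1 difference was not called with edgeR, with a pseudocount of 0.1, or in most fits that left out 1 of its libraries. Between ΔC/- and ΔC/fl, they were Cldn7 (3.57), Ehf (3.06), Marveld2 (2.77), Epcam (2.62), Esrp2 (2.38), Marveld3 (1.91), Dsp (1.79), Esrp1 (1.63), Grhl2 (1.42) and Patj (1.34). Cldn7, Marveld2, Epcam, Dsp and Patj kept their call in the comparison of ΔC/- with ΔC/fl under every alternative that was run, and the other 5 lost it under at least 1. Single samples were not tested for lying apart within a group, since each group had 2. The treated dm/- replicates, with mean centred member levels of -0.16 and -0.96, are an example of a pair that lay apart.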

How the results depend on the processing

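Of the 34 single-gene values that were recomputed under each alternative (680 values), 608 stayed on the same side of the threshold, 72 no longer passed and 0 changed direction. The 12 calls of the mean TGFβ response ranged from 12 to 13 when 1 replicate was left out and were within 1.5 times under all other settings. Lower calls ranged from 6 to 14 in fl/fl (main 11), 1 to 1 in D164A/fl (2), 1 to 2 in D164A/- (5), 19 to 26 in ΔC/fl (26), 1 to 1 in ΔC/- (4), 7 to 8 in dm/fl (9) and 2 to 13 in dm/- (8) when 1 replicate was left out. The 6 higher calls ranged from 5 to 6, the 10 differences from fl/fl from 6 to 11, the 10 between deleted and floxed lines from 5 to 11, and the 2 Wnt3a calls from 1 to 15. Untreated calls ranged from 35 to 54 (54) and 19 to 24 (24) in the TGFβ experiment, and 34 to 59 (50) and 12 to 22 (14) in the Wnt3a experiment, against fl/fl and between deleted and floxed lines.

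With edgeR the lower calls were 1 in D164A/fl, 3 in D164A/- and 2 in ΔC/-, and 1 member was called with Wnt3a. A pseudocount of 0.1 gave 3 in D164A/- and 1 with Wnt3a, and no filter gave 1 in D164A/fl. A fit of only the samples compared gave 0 lower in D164A/-, ΔC/fl and dm/-, 2 in ΔC/-, 3 higher calls, 0 with Wnt3a, 21 differences from fl/fl, and 21 and 0 untreated calls in the Wnt3a experiment. Rescaling by the median of ratios moved the median of all genes by at most 0.033.

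The replicate number as a block gave 4 lower in D164A/fl, 33 differences from fl/fl, 24 between deleted and floxed lines and 8 Wnt3a calls. With the block, 2 members were called with Wnt3a in fl/fl, 4 in D164A/fl, 1 in ΔC/fl and 1 in dm/fl cells, and in fl/fl the lower and higher calls over all genes were 768 and 89 in place of 31 and 21. Same-numbered samples correlated with r = 0.32 to 0.71 in 6 genotypes with TGFβ and -0.25 in ΔC/-, and with 0.54 to 0.94 in 6 genotypes with Wnt3a and -0.10 in dm/fl. Since this did not hold in every pair, the numbers were not taken to pair the samples. The crossed pairing gave 6 in ΔC/-. Responses followed transcript GC content in D164A/fl (Spearman rho = 0.42) and D164A/- (0.34) with TGFβ. With the GC trend removed there were 4 lower in D164A/fl, 24 differences from fl/fl, 20 between deleted and floxed lines, 6 Wnt3a calls and 24 untreated calls between deleted and floxed lines of the Wnt3a experiment. The block with the GC trend removed gave 6 lower in D164A/fl, 8 in D164A/- and 13 in dm/-, 52 differences from fl/fl, 35 between deleted and floxed lines, 10 Wnt3a calls and 25 such untreated calls. The causes were not tested.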
